A study of Mus musculus with 12 samples.

Results

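The 49 genes described here encode enzymes of the tricarboxylic acid (TCA) cycle and subunits of the respiratory chain that are transcribed in the nucleus. They were chosen by name from 43453 genes in the count matrix, and all 49 were found there. By role they are 14 TCA enzymes outside succinate dehydrogenase, 4 subunits of succinate dehydrogenase (complex II), 18 of complex I, 6 of complex III, cytochrome c, and 6 of complex IV. RNA came from bone marrow-derived macrophages (BMDMs) of C57BL/6 mice, cultured with M-CSF (50 ng/mL) during 7 days, in 3 libraries per group and 12 in all. The mice were tlr4f/f, which carry a loxP-flanked tlr4 in every cell, or tlr4f/f-lysM-cre, which carry the same allele and a Cre under the lysM promoter that acts in myeloid cells. BMDMs of each genotype were untreated (LPS-) or treated with 1 µg/mL of LPS, the bacterial ligand of TLR4, for 6 h (LPS+). Sequencing was done to ask how macrophage TLR4 shapes the response to LPS. No source used here says that the libraries of a group came from separate mice, so p-values measure the spread between these libraries, which may be technical.

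Groups are named by the headings of their columns, and 3 genes bear on those headings. Tlr4, the targeted gene, stood at 77 to 146 CPM (counts relative to library size, with edgeR's TMM factors) in the LPS- tlr4f/f libraries and at 94.7 to 117 CPM in the LPS- tlr4f/f-lysM-cre libraries. It was at 24.5 to 31.2 CPM in the LPS+ tlr4f/f libraries and at 24.4 to 27.4 CPM in the LPS+ tlr4f/f-lysM-cre libraries. Lyz2, the locus of lysM, was between 5950 and 23300 CPM in the 6 libraries headed LPS- and between 10.4 and 75.3 CPM in the 6 headed LPS+. Il1b, a cytokine gene that LPS induces, was between 1630 and 8220 CPM in the 6 headed tlr4f/f-lysM-cre and between 0.075 and 6.95 CPM in the 6 headed tlr4f/f. These levels go against the headings, and they would follow them if the heading LPS- tlr4f/f-lysM-cre were exchanged with LPS+ tlr4f/f. Every contrast below is therefore given under both readings. The "LPS- contrast" is LPS- tlr4f/f-lysM-cre minus LPS- tlr4f/f: the genotype without LPS as headed, and LPS treatment of tlr4f/f BMDMs with the headings exchanged. The "LPS+ contrast" is LPS+ tlr4f/f-lysM-cre minus LPS+ tlr4f/f: the genotype with LPS as headed, and LPS treatment of tlr4f/f-lysM-cre BMDMs if exchanged. The "tlr4f/f contrast" is LPS+ minus LPS- in tlr4f/f as headed, and the genotype without LPS if exchanged. The "tlr4f/f-lysM-cre contrast" is LPS+ minus LPS- in that genotype as headed, and the genotype with LPS if exchanged.

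In the TCA cycle, mitochondrial enzymes oxidise acetyl-CoA and hand the electrons to NADH and, through succinate dehydrogenase, to ubiquinone. Complexes I, III and IV pass them on to oxygen, with cytochrome c as the mobile carrier between complexes III and IV, and pump protons that drive ATP synthesis. Macrophages treated with LPS are known for a shift towards glycolysis and for TCA cycle intermediates such as citrate, succinate and itaconate that serve as signals and precursors.

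All 49 genes were well above the filter on low counts, with between 208 counts (Suclg2) and 15627 counts (Idh1) in a library. Per kilobase of transcript, the scale on which genes can be compared, mean levels in the LPS- tlr4f/f libraries ran from 5.41 CPM per kilobase for Suclg2 to 311 for Cox4i1, a subunit of complex IV. Complex IV had the highest median of the subsets with several genes, between 125 and 172 CPM per kilobase in the 4 groups. The medians of the TCA enzymes were between 27.4 and 37.8, those of complex I between 37.9 and 43.3, those of complex II between 73.3 and 80.1 and those of complex III between 52.4 and 63.3 CPM per kilobase. Cycs, the gene of cytochrome c, was at 20.2 CPM per kilobase in the LPS- tlr4f/f libraries and at 58.4 in the LPS- tlr4f/f-lysM-cre libraries. The subsets overlapped in level, and their order by median was the same in the 4 groups, apart from cytochrome c.

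**Figure D1:**
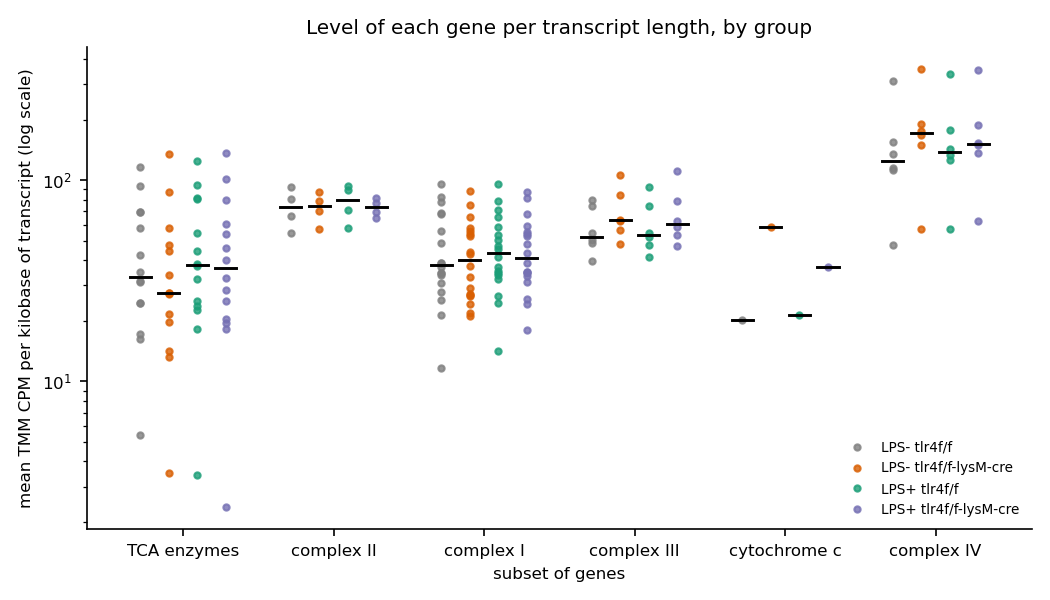
Mean TMM CPM per kilobase of transcript (log axis) of each of the 49 genes by subset, with 1 point per gene and group and a black bar at the median of the subset. Complex IV has the highest medians, Suclg2 is the lowest point of the TCA enzymes in every group, and cytochrome c is the subset whose groups lie farthest apart.

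Summed over the 49 genes, the level was 3540 to 3700 CPM in the LPS- tlr4f/f libraries, 3200 to 4100 in the LPS- tlr4f/f-lysM-cre libraries, 3690 to 3960 in the LPS+ tlr4f/f libraries and 3900 to 3990 in the LPS+ tlr4f/f-lysM-cre libraries. The LPS- tlr4f/f-lysM-cre group held both the lowest and the highest library. Single genes differed more than the sum, as the heat map of all 49 genes shows. Idh1 and Cycs had the largest differences between groups. Within groups, the median SD of log2 CPM over the 49 genes was 0.119 for LPS- tlr4f/f, 0.208 for LPS- tlr4f/f-lysM-cre, 0.0556 for LPS+ tlr4f/f and 0.0471 for LPS+ tlr4f/f-lysM-cre (log2 CPM with a prior count of 2). The libraries headed LPS+ were thus closer to each other, and the SEs of their differences were smaller.

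**Figure D2:**
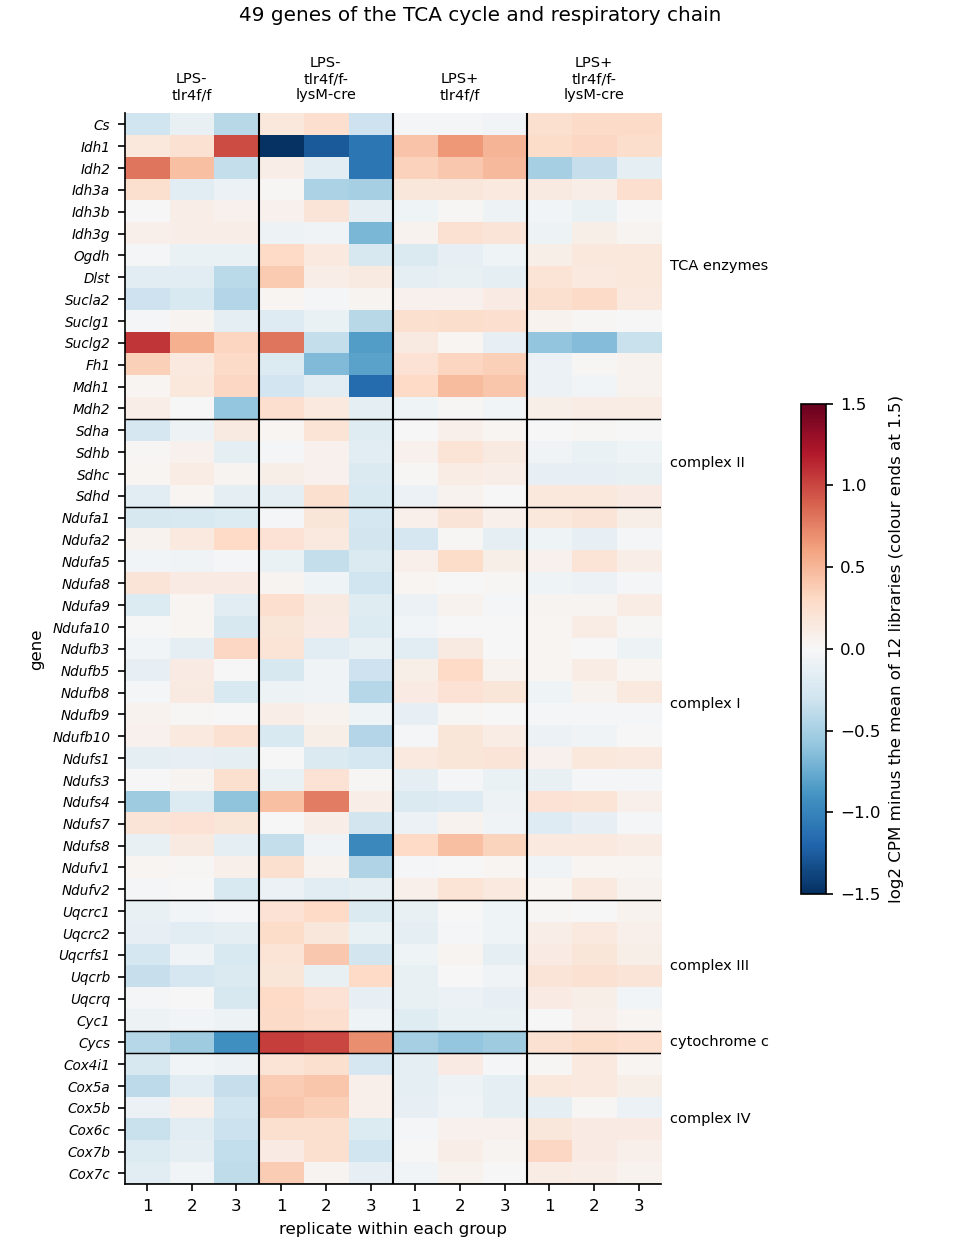
Log2 TMM CPM of the 49 genes (rows, by subset) in the 12 libraries (columns, by group and replicate), minus the mean of each gene, with red above and blue below that mean. Idh1 is lowest and Cycs highest in the LPS- tlr4f/f-lysM-cre libraries, Suclg2 and Idh2 vary within the groups headed LPS-, and most complex I subunits stay pale.

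A gene was called different at an adjusted p below 0.05 in the quasi-likelihood test of edgeR, adjusted by Benjamini-Hochberg over all genes tested. In the tlr4f/f contrast 0 of the 49 genes were called, against 1.28% of the 14712 genes tested (0.605% higher and 0.673% lower), while 12 of the 49 had an unadjusted p below 0.05, or 24.5%, against 24.6% of all genes. DESeq2 called 6 of the 49 there, against 15.6% of all genes, and limma voom 2, against 8.71%. Without replicate 2 of the LPS- tlr4f/f group edgeR called 2, against 6.59% of all genes, and without replicate 3 it called 5, against 14.3%. In the tlr4f/f-lysM-cre contrast 2 were called, 1 higher and 1 lower, against 26.7% of all genes (12.5% higher and 14.2% lower). That count was 5 without any 1 of the LPS- tlr4f/f-lysM-cre libraries, against 27.5% to 34% of all genes, and 1 without any 1 of the LPS+ tlr4f/f-lysM-cre libraries, against 7.01% to 7.72%. The LPS- contrast called 5, 3 higher and 2 lower, against 37.3% of all genes (17.9% higher and 19.4% lower). Without replicate 1 or 3 of the LPS- tlr4f/f group it called 2 and 3, against 29% and 29.6% of all genes, and without replicate 2 of the LPS- tlr4f/f-lysM-cre group 3, against 27.2%. In the LPS+ contrast 23 were called, 14 higher and 9 lower, against 61.4% of all genes (30.5% higher and 31% lower). In the tlr4f/f-lysM-cre, LPS- and LPS+ contrasts, the share of the 49 genes that was called was below that background. In the tlr4f/f contrast the background of 1.28% is too low for 0 of 49 genes to show a lower share. The median size of the log2 difference over the 49 genes was 0.121, 0.106, 0.221 and 0.135 in these 4 contrasts, in the same order. Over all genes tested it was 0.286, 0.447, 0.759 and 0.441. The median SE was lower for the 49 genes as well, at 0.095, 0.13, 0.163 and 0.056, against 0.201, 0.22, 0.301 and 0.101 over all genes. The sizes are therefore not compared at like precision. A fit of all 12 libraries with a shared spread called 2 in the LPS+ contrast, Cycs and Dlst, against 31.1% of all genes, and 14 in the LPS- contrast, against 53%. The study's criteria for DEGs ask for more than a 2-fold change with an adjusted p under 0.01. Idh1 and Cycs met them in the LPS- contrast, against 17.1% of all genes, and Idh1 in the tlr4f/f-lysM-cre contrast, against 6.09%. In the LPS+ contrast 0 of the 49 met them in edgeR, against 21.8% of all genes, and 0 did so in DESeq2 or limma voom, while 24 of the 49 had an unadjusted p below 0.05, or 49%, against 64.9% of all genes.

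Of the TCA enzymes, Idh1 differed most. It encodes the isocitrate dehydrogenase of the cytosol and peroxisomes, which makes NADPH, and lies on chromosome 1 of mm10 from 65158616 to 65186479. Idh1 stood at 165, 174 and 293 CPM in the LPS- tlr4f/f libraries, 53.2, 61.9 and 70.1 in the LPS- tlr4f/f-lysM-cre libraries, 199, 232 and 211 in the LPS+ tlr4f/f libraries and 180, 184 and 178 in the LPS+ tlr4f/f-lysM-cre libraries. All 3 LPS- tlr4f/f-lysM-cre libraries were far below the other 9, and the LPS+ tlr4f/f-lysM-cre libraries lay just below the LPS+ tlr4f/f libraries without overlap. The log2 difference was -1.77 (SE 0.264, adjusted p = 0.00356 in edgeR) in the LPS- contrast, a level 3.42-fold lower. It was -0.23 (SE 0.0601, adjusted p = 0.00469 in edgeR) in the LPS+ contrast and 1.56 (SE 0.13, adjusted p = 0.00126 in edgeR) in the tlr4f/f-lysM-cre contrast. As headed, Idh1 was therefore lower in tlr4f/f-lysM-cre than in tlr4f/f BMDMs under either condition, and LPS treated BMDMs of the Cre genotype had more of it than untreated ones. With the headings exchanged, it was lower with LPS in both genotypes, and of the LPS treated BMDMs those with Cre had more of it. In bulk RNA, fewer cells of a type and less RNA per cell cannot be told apart. Each of these 3 calls held with any 1 library left out. In the fit of all 12 libraries, the call of Idh1 in the LPS+ contrast was lost.

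Idh2, the NADP-dependent enzyme inside mitochondria, was at 72.1, 56.4 and 32.3 CPM in the LPS- tlr4f/f libraries and at 44.3, 37.2 and 19.5 CPM in the LPS- tlr4f/f-lysM-cre libraries. These groups overlapped. Its level was 52.5, 54.7 and 58.1 CPM in the LPS+ tlr4f/f libraries and 29.4, 32.5 and 37.7 CPM in the LPS+ tlr4f/f-lysM-cre libraries. Here every library of the first group was above every library of the second. Idh2 was 1.65-fold lower in the LPS+ contrast (log2 difference -0.72, SE 0.0865, adjusted p = 2.06e-05 in edgeR), the largest fall of the TCA enzymes in it, and its log2 difference of -0.68 in the LPS- contrast had an SE of 0.394 (adjusted p = 0.216 in edgeR). The NAD-dependent Idh3a, Idh3b and Idh3g, the isocitrate dehydrogenase subunits of the cycle itself, were not called in any of the 4 contrasts. Per kilobase, the ratio of Idh3a to Idh1 ran from 0.372 to 0.697 in the LPS- tlr4f/f-lysM-cre libraries and from 0.118 to 0.263 in the other 9.

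Cs, citrate synthase, opens the cycle, and Ogdh and Dlst belong to the 2-oxoglutarate dehydrogenase complex. Dlst was at 102, 101 and 85.9 CPM in the LPS- tlr4f/f libraries, 150, 122 and 125 in the LPS- tlr4f/f-lysM-cre libraries, 103, 105 and 103 in the LPS+ tlr4f/f libraries and 131, 126 and 127 in the LPS+ tlr4f/f-lysM-cre libraries. Neither pair of groups overlapped, and Dlst was called in the LPS+ contrast (log2 difference 0.31, SE 0.0462, adjusted p = 7.41e-05 in edgeR) and not in the LPS- contrast (0.45, SE 0.158, adjusted p = 0.0652 in edgeR). Cs (0.31) and Ogdh (0.27) were higher in the LPS+ contrast as well.

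Fh1 is fumarase, which turns fumarate into malate. It was at 42.6, 36.8 and 40.6 CPM in the LPS- tlr4f/f libraries, 29, 21.1 and 19.1 in the LPS- tlr4f/f-lysM-cre libraries, 38.8, 41.8 and 42.8 in the LPS+ tlr4f/f libraries and 31.4, 33.8 and 34.6 in the LPS+ tlr4f/f-lysM-cre libraries. The groups of each pair did not overlap. Fh1 was lower in the LPS- contrast (log2 difference -0.80, SE 0.194, adjusted p = 0.0196 in edgeR) and in the LPS+ contrast (-0.295, SE 0.0649, adjusted p = 0.00167 in edgeR). The LPS- call was lost in 3 of 6 fits with 1 library left out, with an adjusted p of up to 0.0649.

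Succinyl-CoA synthetase has a common alpha subunit, Suclg1, and a beta subunit that sets its nucleotide, Sucla2 for ADP and Suclg2 for GDP. In the LPS+ contrast Sucla2 was higher (log2 difference 0.16) while Suclg1 (-0.21) and Suclg2 (-0.52) were lower. Per kilobase, the ratio of Sucla2 to Suclg2 was 2.41 to 3.76 in the LPS- tlr4f/f libraries and 3.69 to 11.6 in the LPS- tlr4f/f-lysM-cre libraries. It was 6.0 to 7.49 in the LPS+ tlr4f/f libraries and 8.79 to 12.1 in the LPS+ tlr4f/f-lysM-cre libraries, without overlap. Malate dehydrogenase split in the same contrast, with the cytosolic Mdh1 lower (-0.41, SE 0.0601) and the mitochondrial Mdh2 higher (0.14, SE 0.0483). The ratio of Mdh2 to Mdh1 per kilobase was 1.11 to 2.15 for LPS- tlr4f/f and 2.54 to 4.13 for LPS- tlr4f/f-lysM-cre, and with LPS+ in the heading 1.5 to 1.59 for tlr4f/f and 2.14 to 2.33 for tlr4f/f-lysM-cre. Both tlr4f/f-lysM-cre groups were thus above the tlr4f/f group with the same LPS heading. In all, the LPS+ contrast called 5 of the 14 TCA enzymes higher and 6 lower, against 30.5% and 31% of all genes, with a median log2 difference of -0.07.

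**Figure D3:**
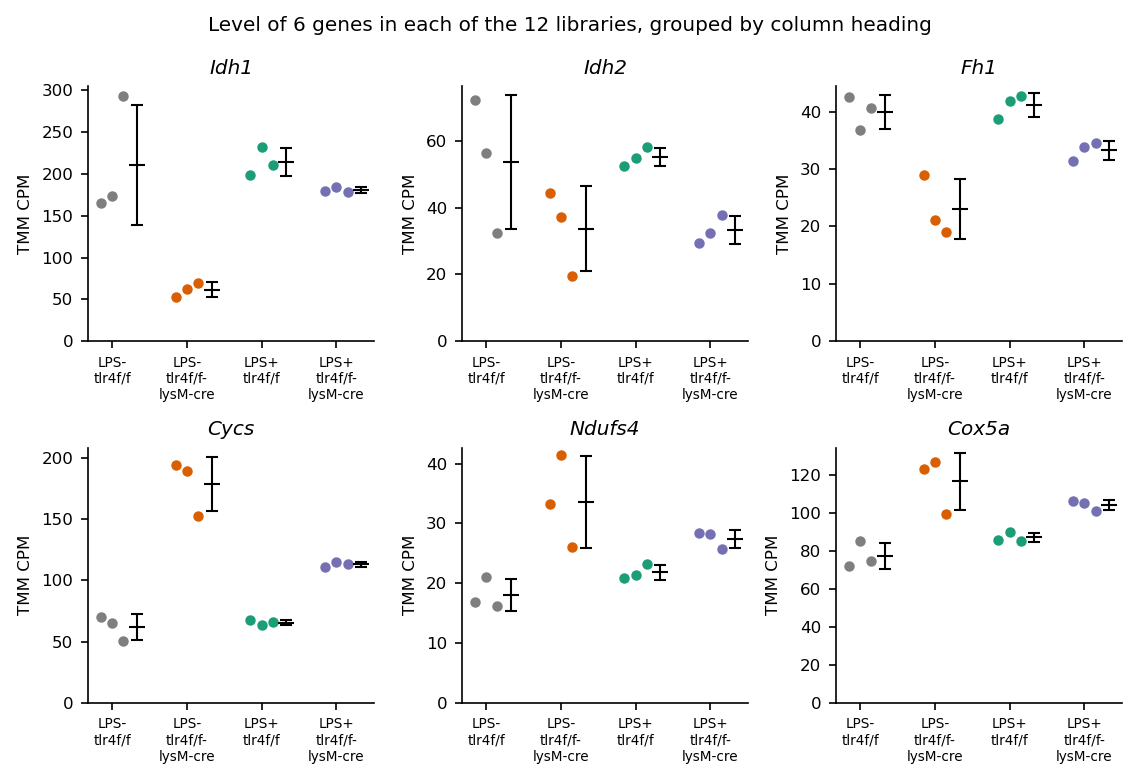
TMM CPM of Idh1, Idh2, Fh1, Cycs, Ndufs4 and Cox5a in each library (points, by column heading) with the mean and SD of each group (black, n = 3). Idh1 drops to between 53.2 and 70.1 CPM and Cycs reaches 153 to 194 CPM in the LPS- tlr4f/f-lysM-cre libraries, and the groups headed LPS+ are tightly clustered.

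Succinate dehydrogenase is both a TCA enzyme and complex II. None of its 4 genes was called in 3 of the contrasts, where edgeR, DESeq2 and limma voom each gave 0 calls, 0 had an unadjusted p below 0.05 in edgeR and the log2 differences lay between -0.09 and 0.19. Of all genes, edgeR called 1.28%, 26.7% and 37.3% in the tlr4f/f, tlr4f/f-lysM-cre and LPS- contrasts, so 0 of 4 genes says little. In the LPS+ contrast, the iron-sulfur subunit Sdhb was at 91.5, 101 and 95.7 CPM in the tlr4f/f libraries and at 83.9, 81.7 and 83.8 CPM in the tlr4f/f-lysM-cre libraries. The membrane anchor Sdhd was at 70.4, 77.9 and 75.2 CPM in the tlr4f/f libraries and at 83.8, 83.5 and 81.9 CPM in the tlr4f/f-lysM-cre libraries. Neither gene overlapped between the groups, and they moved in opposite directions. Sdhb was lower (log2 difference -0.20, SE 0.0515, adjusted p = 0.00513 in edgeR), as was the other anchor, Sdhc (-0.19), while Sdhd was higher (0.17, SE 0.0521, adjusted p = 0.0139 in edgeR). Sdha, the catalytic flavoprotein, had a log2 difference of -0.02 (SE 0.048).

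Complex I takes electrons from NADH, and edgeR called 16 of its 18 genes in none of the 4 contrasts, in which it called between 1.28% and 61.4% of all genes. In the tlr4f/f contrast DESeq2 also called Ndufa1, Ndufs1 and Ndufs8 higher and limma voom Ndufs1, and in the tlr4f/f-lysM-cre contrast limma voom called Ndufs8 higher. Ndufs4, an accessory subunit needed for a stable complex, was the gene that edgeR called higher. It was at 16.9, 21.1 and 16.1 CPM in the LPS- tlr4f/f libraries, 33.2, 41.4 and 26.1 in the LPS- tlr4f/f-lysM-cre libraries, 20.9, 21.3 and 23.2 in the LPS+ tlr4f/f libraries and 28.4, 28.2 and 25.7 in the LPS+ tlr4f/f-lysM-cre libraries. Both tlr4f/f-lysM-cre groups were above both tlr4f/f groups in every library. The log2 difference was 0.89 (SE 0.211, adjusted p = 0.0184 in edgeR) in the LPS- contrast and 0.34 (SE 0.0723, adjusted p = 0.00138 in edgeR) in the LPS+ contrast. The first of these calls was lost in 4 of 6 fits with 1 library left out, with an adjusted p of up to 0.0593. Ndufs8, an iron-sulfur subunit, was lower in the LPS+ contrast (log2 difference -0.21, SE 0.0584, adjusted p = 0.00674 in edgeR), from 44.6, 49.4 and 45.5 CPM in the tlr4f/f libraries to 40.1, 40 and 39.2 CPM in the tlr4f/f-lysM-cre libraries. Over the 18 genes, the median log2 difference was -0.07 in the LPS- contrast and -0.01 in the LPS+ contrast.

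Complex III passes electrons from ubiquinone to cytochrome c, and 5 of its 6 genes were higher in the LPS+ contrast, against 30.5% of all genes that were called higher. These were the core subunit Uqcrc2 (log2 difference 0.19), the Rieske iron-sulfur protein Uqcrfs1 (0.20), Uqcrb (0.27), Uqcrq (0.18) and cytochrome c1, Cyc1 (0.18). The other core subunit, Uqcrc1, had a log2 difference of 0.10 (SE 0.0501, adjusted p = 0.115 in edgeR). Uqcrb was at 44.9, 48.1 and 46.7 CPM in the LPS+ tlr4f/f libraries and at 55.2, 56.8 and 55.3 CPM in the LPS+ tlr4f/f-lysM-cre libraries, without overlap (SE of the log2 difference 0.053, adjusted p = 0.000742 in edgeR). The summed level of the 6 genes was 443 to 471 CPM and 502 to 516 CPM in these groups, which did not overlap either. In the LPS- contrast 0 of the 6 genes were called by edgeR, against 37.3% of all genes, with 1 at an unadjusted p below 0.05, against 47.9%. DESeq2 called 1 of the 6, against 44.1% of all genes, and limma voom 0, against 40.2%. The log2 differences of the 6 genes were between 0.17 and 0.40. Their summed level was 435 to 457 CPM in the LPS- tlr4f/f libraries and 447 to 570 CPM in the LPS- tlr4f/f-lysM-cre libraries, which overlapped. The LPS+ rises are small, of at most 1.21-fold, and in the fit of all 12 libraries none of these was among the genes called.

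Cycs had the largest rise of all 49 genes in both contrasts. It lies on chromosome 6 of mm10 from 50562563 to 50566569, and its product is the soluble carrier between complexes III and IV that also activates caspases when it leaves mitochondria. Cycs was at 70.2, 65.4 and 50.1 CPM in the LPS- tlr4f/f libraries, 194, 189 and 153 in the LPS- tlr4f/f-lysM-cre libraries, 67.2, 63.5 and 65.7 in the LPS+ tlr4f/f libraries and 111, 115 and 113 in the LPS+ tlr4f/f-lysM-cre libraries. Both groups headed tlr4f/f were at a similar level, the LPS+ tlr4f/f-lysM-cre libraries stood above them, and the LPS- tlr4f/f-lysM-cre libraries stood highest, with no overlap between these 3 levels. The log2 difference was 1.52 (SE 0.188, adjusted p = 0.00201 in edgeR) in the LPS- contrast, a 2.86-fold rise. It was 0.795 (SE 0.0496, adjusted p = 2.85e-08 in edgeR) in the LPS+ contrast, a 1.73-fold rise, and both calls held with any 1 library left out. In the tlr4f/f-lysM-cre contrast it was -0.65 (SE 0.117, adjusted p = 0.0104 in edgeR), and this call was lost in 3 of 6 such fits, with an adjusted p of up to 0.0693. As headed, Cycs was higher in tlr4f/f-lysM-cre than in tlr4f/f BMDMs under either condition. With the headings exchanged, it was higher with LPS in both genotypes, and of the LPS treated BMDMs those with Cre had less of it. Cycs has processed pseudogenes in the mouse genome, and how reads shared with them were counted is not given in the sources used here. Per kilobase, the ratio of Cycs to Cyc1, whose products hand electrons to each other, was 0.304 to 0.426 in the LPS- tlr4f/f libraries and 0.916 to 0.918 in the LPS- tlr4f/f-lysM-cre libraries. It was 0.392 to 0.439 for LPS+ tlr4f/f, and 0.63 to 0.635 for LPS+ tlr4f/f-lysM-cre.

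Cycs and Idh1 are the genes with the widest differences, in opposite directions, and the 250 bases before the start of each are shown for that reason. The sequences are from RefSeq (GRCm38.p6, the assembly of mm10), 5′ to 3′ on the minus strand of each gene, with capitals for TGACGTCA (the CRE, bound by CREB and ATF factors) and GCATGCGC (a core of NRF1 sites).
Cycs, chr6:50566570-50566819: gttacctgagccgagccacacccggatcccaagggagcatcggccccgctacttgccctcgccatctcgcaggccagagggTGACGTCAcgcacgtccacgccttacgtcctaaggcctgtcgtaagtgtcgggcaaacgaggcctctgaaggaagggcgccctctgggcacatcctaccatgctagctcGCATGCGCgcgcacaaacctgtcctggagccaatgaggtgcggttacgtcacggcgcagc
Idh1, chr1:65186480-65186729: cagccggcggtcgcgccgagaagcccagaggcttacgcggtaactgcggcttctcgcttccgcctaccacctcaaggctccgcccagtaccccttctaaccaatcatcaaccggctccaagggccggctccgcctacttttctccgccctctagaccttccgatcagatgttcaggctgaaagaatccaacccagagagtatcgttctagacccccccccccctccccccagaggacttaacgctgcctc
The Cycs promoter held TGACGTCA 169 bases and GCATGCGC 60 bases before the start, and none of the motifs searched was found in the Idh1 promoter. RefSeq promoters of 300 bases (250 before and 50 after the start) were matched by symbol for 38 of the 49 genes, and both strands were searched. TGACGTCA was in 13.2% of the 38 (Ogdh, Mdh2, Ndufa10, Uqcrfs1 and Cycs) and in 1.88% of all 27025 promoters. GCATGCGC was in 10.5% of the 38 and 2.8% of all, and GCGCA and GCGC with any 1 base between them, another form of the NRF1 site that can overlap it, in 15.8% and 4.78%. The YY1 motif AAGATGGCG was in 10.5% and 1.49%, the ETS motif CCGGAAGT in 5.26% and 4.0%, and the ERR element TCAAGGTCA in 2.63% and 0.407%. TCACNCCAC, a sterol regulatory element, was in 0.0% of the 38 and 1.22% of all. These matches describe the letters only.

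Complex IV reduces oxygen, and Cox5a was the 1 gene of its 6 that edgeR called. These calls were in the LPS- and LPS+ contrasts, where 37.3% and 61.4% of all genes were called. DESeq2 also called Cox6c higher in the tlr4f/f contrast and Cox5b lower in the tlr4f/f-lysM-cre contrast. Cox5a was at 72.2, 85 and 74.6 CPM in the LPS- tlr4f/f libraries, 123, 127 and 99.6 in the LPS- tlr4f/f-lysM-cre libraries, 85.8, 89.9 and 85.4 in the LPS+ tlr4f/f libraries and 106, 105 and 101 in the LPS+ tlr4f/f-lysM-cre libraries. The groups of each pair did not overlap. It was higher in the LPS- contrast (log2 difference 0.585, SE 0.152, adjusted p = 0.0243 in edgeR) and in the LPS+ contrast (0.27, SE 0.0491, adjusted p = 0.000425 in edgeR). The first call was lost in 4 of 6 fits with 1 library left out, with an adjusted p of up to 0.0893. Cox4i1, Cox5b, Cox6c, Cox7b and Cox7c had log2 differences between 0.19 and 0.37 in the LPS- contrast and between 0.05 and 0.14 in the LPS+ contrast, none of which passed the edgeR test.

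**Figure D4:**
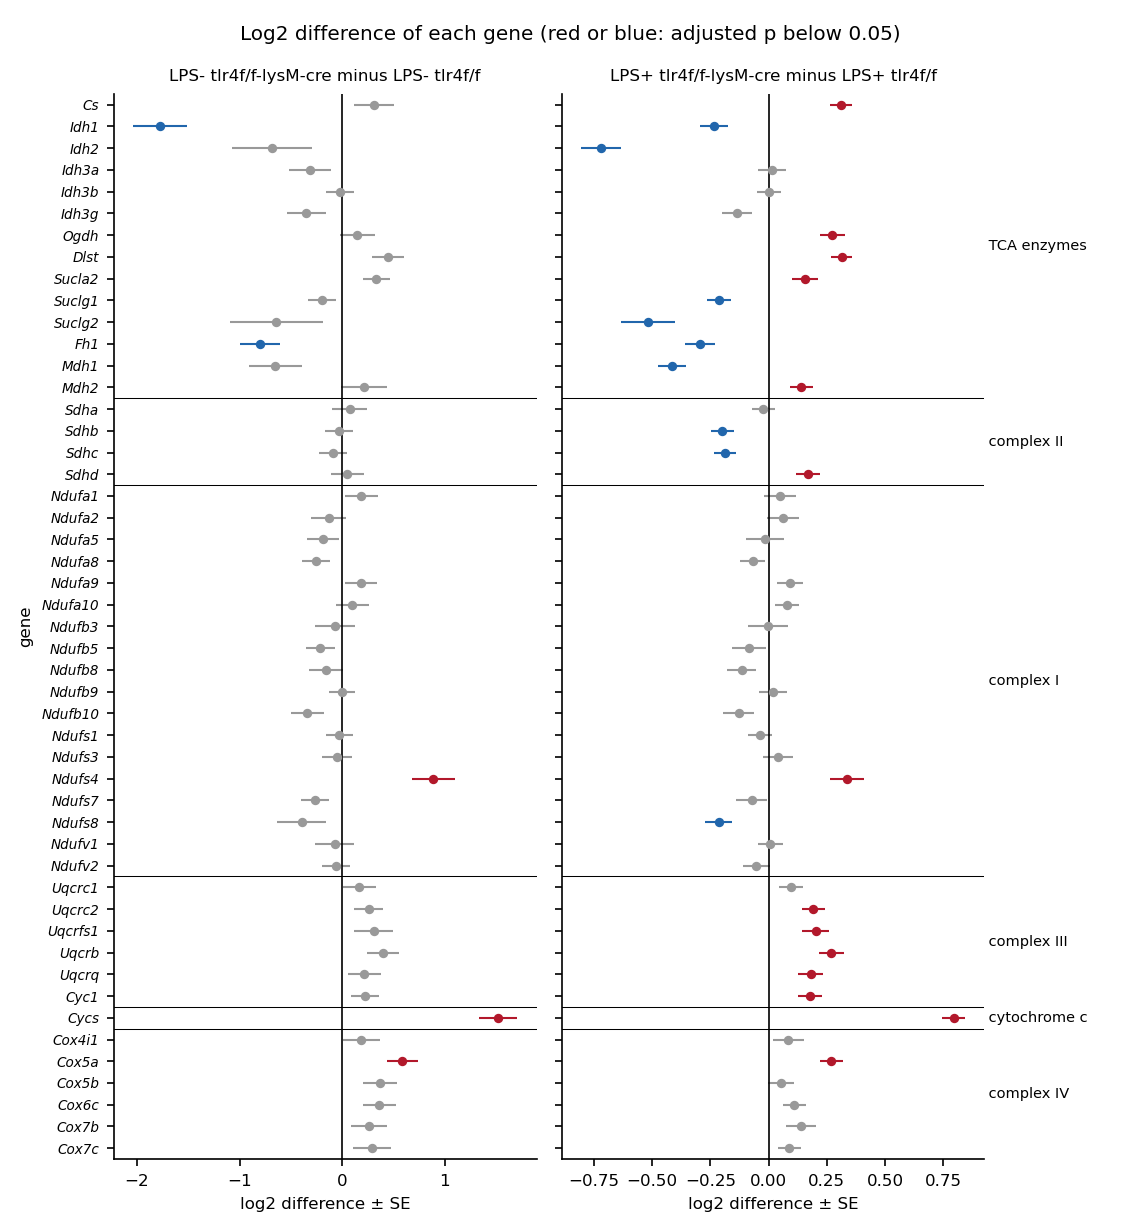
Log2 difference ± SE of the 49 genes in the LPS- contrast (left) and the LPS+ contrast (right, on a narrower axis), with genes at an adjusted p below 0.05 in red (higher) or blue (lower). Cycs and Idh1 lie at the ends of the left panel, at 1.52 and -1.77, and the right panel shows 14 red and 9 blue genes within a narrower range.

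The LPS- and LPS+ contrasts share no library. Their log2 differences had the same sign in 42 of the 49 genes, or 85.7%, against 81.6% of 13922 genes tested in both. All 5 genes called in the LPS- contrast (Idh1, Fh1, Ndufs4, Cycs and Cox5a) were called in the LPS+ contrast in the same direction, as were 86.5% of all genes called in the LPS- contrast. Across the 49 genes, which are not independent replicates, Pearson's r was 0.834 and Spearman's rho 0.9, and r was 0.877 without Idh1 and Cycs. The tlr4f/f and tlr4f/f-lysM-cre contrasts share no library either, and had the same sign in 31 of the 49 genes, or 63.3%, against 62.6% of all genes.

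In the tlr4f/f contrast, the differences closest to a call were those of Sucla2 (log2 difference 0.42, SE 0.0893, adjusted p = 0.0683 in edgeR) and of Ndufs1, a core subunit of complex I (0.33, SE 0.0693, adjusted p = 0.0683 in edgeR). Idh1 and Cycs were at 0.04 and 0.09 there. Over the 49 genes, the median log2 difference was 0.109 in the tlr4f/f contrast and 0.024 in the tlr4f/f-lysM-cre contrast, against -0.035 and 0.026 over all genes tested.

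The interaction, the difference between the tlr4f/f-lysM-cre and the tlr4f/f contrast over all 12 libraries, is the same number under both readings of the headings. It called 2 of the 49 genes, against 6.99% of 15792 genes, while 5 of the 49 had an unadjusted p below 0.05, or 10.2%, against 23.4% of all genes. The study's criteria were met by 0 of the 49 in edgeR, against 0.994% of the genes, and by 1 each in DESeq2 and limma voom. Idh1 had an interaction of 1.52 on the log2 scale (SE 0.281, adjusted p = 0.0124 in edgeR), called with any 1 of the 12 libraries left out. Cycs had one of -0.74 (SE 0.186, adjusted p = 0.0385 in edgeR), which was called in 3 of 12 such fits, with an adjusted p of up to 0.115. The count was 5 without replicate 3 of the LPS- tlr4f/f-lysM-cre group, against 9.45% of all genes. It was 1 without replicate 2 of either LPS- group, against 6.99% and 7.17%, and 1 without any 1 of the 6 libraries headed LPS+, against 2.24% to 2.91%. The other 47 genes, with Fh1 at 0.49 (SE 0.201) and Ndufs4 at -0.57 (SE 0.23), did not pass the test of the difference.

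Some genes around the cycle and the chain differed by far more. Acod1, which makes itaconate from the TCA intermediate cis-aconitate, was at 4.61 to 42.4 CPM in the LPS- tlr4f/f libraries and 8.34 to 12.2 CPM in the LPS+ tlr4f/f libraries. It reached 7260 to 11700 CPM in the LPS- tlr4f/f-lysM-cre libraries and 3980 to 4790 CPM in the LPS+ tlr4f/f-lysM-cre libraries. The log2 difference was 8.58 (SE 0.995, adjusted p = 0.00175 in edgeR) in the LPS- contrast and 8.71 (SE 0.18, adjusted p = 5.25e-09 in edgeR) in the LPS+ contrast. AA467197, whose product is related to the complex IV subunit Ndufa4, was higher in the same contrasts by log2 differences of 5.82 and 5.83, from 2.04 to 5.83 CPM up to 148 to 255 CPM in the LPS- contrast. Ndufa4 itself had log2 differences of -0.01 and 0.06 in these contrasts, and was called higher in the tlr4f/f-lysM-cre contrast. Of 14 genes of citrate export, itaconate and anaplerosis, Acod1 included, 2 were higher and 5 lower in the LPS- contrast, and 6 higher and 5 lower in the LPS+ contrast. Fasn and Acaca, which use exported citrate to build fatty acids, were among those lower in the LPS- contrast, at -2.01 (SE 0.459) and -1.13 (SE 0.276). Both were higher in the tlr4f/f-lysM-cre contrast, at 1.65 (adjusted p = 0.0323 in edgeR) and 1.504 (adjusted p = 0.0107 in edgeR).

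Of 15 genes of pyruvate dehydrogenase and the remaining TCA enzymes, 1 was higher and 2 were lower in the LPS- contrast, and 5 were higher and 3 lower in the LPS+ contrast. Dld, the E3 subunit shared with the 2-oxoglutarate dehydrogenase complex, was higher in both, with log2 differences of 0.95 and 0.65. Pdk2, a kinase that inactivates pyruvate dehydrogenase, was lower in both, with log2 differences of -2.39 and -1.60, at 0.671 to 9.03 CPM in any library. Of 19 further genes listed as complex I subunits, to which Ndufa4 was assigned in the list, 0 were called in the LPS- contrast by edgeR (0 at an unadjusted p below 0.05, with 1 called by DESeq2 and 0 by limma voom) and 3 were lower in the LPS+ contrast. Of 16 ATP synthase genes, 2 were higher in the LPS- contrast, and 4 were higher and 1 lower in the LPS+ contrast, with log2 differences of 0.61 and 0.27 for the beta subunit Atp5b. Among genes that assemble the complexes, 4 of 13 for complex I and 4 of 13 for complexes II and III were called in the LPS- contrast, each of them lower. In the LPS+ contrast 1 was higher and 3 were lower for complex I, and 1 was higher and 4 were lower for complexes II and III. Those lower in the LPS- contrast included the assembly factors Ndufaf7 (log2 difference -2.27) and Tmem126b (-1.44) of complex I, Sdhaf1 (-1.55) of complex II and Bcs1l (-1.53) of complex III. For complex IV, 5 were higher and 1 was lower of the 20 tested in the remaining list in the LPS- contrast, and 9 of 21 were called in the LPS+ contrast, each of them higher. The higher ones in the LPS- contrast included the copper chaperones Cox17 (log2 difference 1.23) and Sco1 (1.59). Esrra, a nuclear receptor that activates many genes of oxidative metabolism, had log2 differences of 1.15 (SE 0.132) and 1.12 (SE 0.0566) in the LPS- and LPS+ contrasts, both called. Of 13 tested regulators of mitochondrial biogenesis, 3 were higher and 2 lower in the LPS- contrast, and 3 higher and 3 lower in the LPS+ contrast. Of 18 glycolysis genes, 7 were called in the LPS- contrast, each of them higher, and in the LPS+ contrast 12 were higher and 1 was lower. Pfkfb3, which makes an activator of phosphofructokinase, had log2 differences of 5.17 and 1.65, both called. All these counts stand against the 37.3% and 61.4% of all genes called in the LPS- and LPS+ contrasts. By direction, 17.9% of all genes were higher and 19.4% lower in the LPS- contrast. In the LPS+ contrast 30.5% were higher and 31% lower.

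**Figure D5:**
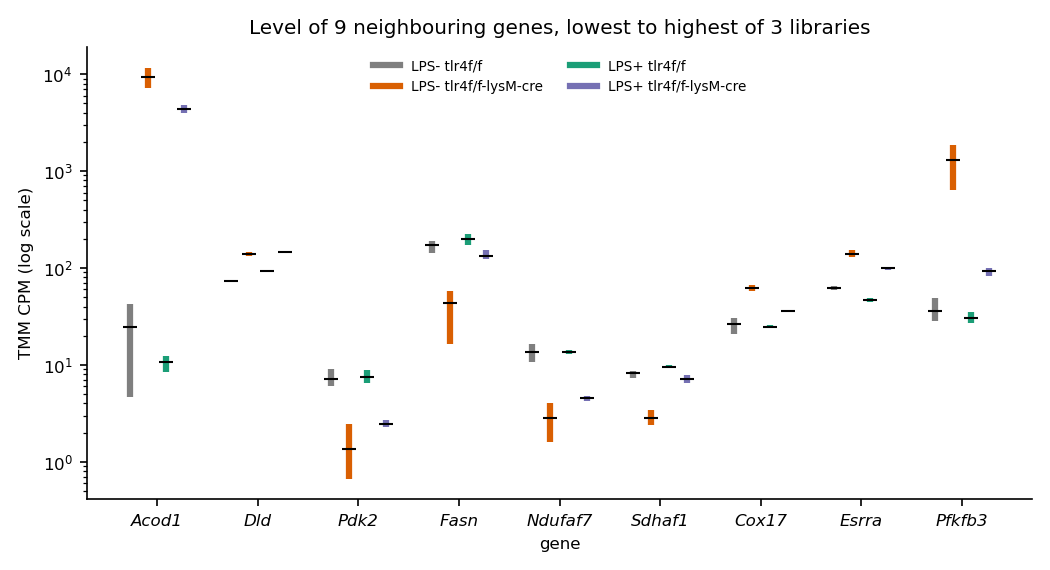
TMM CPM (log axis) of 9 genes outside the 49, with the coloured bar from the lowest to the highest of the 3 libraries of a group and the black tick at the mean. Acod1, Dld, Cox17, Esrra and Pfkfb3 are higher, and Pdk2, Fasn, Ndufaf7 and Sdhaf1 lower, in the groups headed tlr4f/f-lysM-cre than in the group headed tlr4f/f with the same LPS heading.

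All 8 macrophage markers checked, among them Adgre1 and Csf1r, were detected in every group, and they summed to 6470 to 7470 CPM for LPS- tlr4f/f, 10700 to 13700 for LPS- tlr4f/f-lysM-cre, 4600 to 4870 for LPS+ tlr4f/f, and 7760 to 7960 for LPS+ tlr4f/f-lysM-cre. Markers of other cells also differed. The 7 fibroblast and stroma markers, led by Col1a1, summed to 680, 61.8 and 10.6 CPM in the LPS- tlr4f/f libraries and to 950, 139 and 1500 CPM in the LPS- tlr4f/f-lysM-cre libraries, against 22.3 to 46.7 CPM in the libraries headed LPS+. The 9 neutrophil markers summed to 14.9 to 192 CPM in the LPS- tlr4f/f-lysM-cre libraries and to 0.675 to 13.9 CPM in the other 9. These markers did not move together. In the LPS- tlr4f/f-lysM-cre libraries S100a8 was at 8.88 to 125 CPM, while Ly6g was at most 0.0312 CPM, and 0 in the other 3 groups. Mpo was at 0.134 to 1.37 CPM there, against 0 to 2.84 CPM in the LPS- tlr4f/f libraries. Cxcr2 was highest in the LPS+ tlr4f/f libraries, at 0.347 to 0.61 CPM. Markers of lymphocytes, erythroid cells, mast cells and dendritic cells summed to at most 7.07 CPM in any library. In the LPS- tlr4f/f-lysM-cre libraries with 950, 139 and 1500 CPM of fibroblast and stroma markers, Cycs was at 194, 189 and 153 CPM, Idh1 at 53.2, 61.9 and 70.1 CPM and the sum of the 49 genes at 4102, 4077 and 3200 CPM. The library with the lowest of these sums was the highest in fibroblast and stroma markers and in neutrophil markers. The part of these cells in the differences of the 49 genes was not tested. The 13 protein genes of mitochondrial DNA encode further subunits of complexes I, III and IV and of ATP synthase. None of them was found by symbol in the count matrix, so they were not analysed here.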

How the data were processed

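RNA of BMDMs was sequenced in 12 libraries, 3 per group. Per the labels, rRNA was removed with a Ribo-Zero kit and libraries were made with a NEBNext Ultra kit. They also name the assay polyA RNA sequencing. Per the submitters' processing notes and the methods, reads were trimmed with Trimmomatic 0.36, aligned to mm10 with HISAT2 and counted with HTSeq. The authors deposited whole-number read counts without normalization for 115140 transcript rows. The strand setting and the treatment of reads with several matches are not given in the sources used here, so overlapping and near-identical genes are uncertain.

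For each of 43453 genes the transcript row with the highest total was taken. The depth of a library, its counts over these genes, was between 33577440 and 56445989 (median 45331247). Libraries were grouped by column heading, and every contrast was also read with the heading LPS- tlr4f/f-lysM-cre in exchange for LPS+ tlr4f/f. The test on counts was the robust quasi-likelihood fit of edgeR 4.0.16 (R 4.3.3) after filterByExpr and with TMM factors, adjusted by Benjamini-Hochberg over all genes tested, with the 6 libraries of a contrast or, for the interaction, all 12. The study used DESeq. CPM carry no prior count, log2 differences are edgeR's fitted values, and an SE is the size of the difference divided by the square root of its F statistic.

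The 49 genes, the lists of related genes and the markers were chosen with earlier results of these data known, and the lists come from general knowledge. Values of every library are given for the called gene with the largest rise and fall per subset and contrast, for genes past the criteria of the study, and for Fh1, chosen after its values were seen, as were the ratios. From each list of related genes, up to 2 called genes per contrast could be named. Bcs1l, Acaca, Ndufa4, Cox17 and the rest named follow that rule in at least 1 contrast. Ecsit, Uqcc1, Gabpb1 and Hk2 are named because the interaction was called, a choice made after their values were seen. The test was tried on simulated data.

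Alternatives were DESeq2 1.42.0, limma 3.58.1 voom with sample quality weights, RLE factors, other filters on low counts, all 12 libraries in 1 fit, the sum over transcript rows, the replicate number as a block, the study's criteria and each library left out. Promoters were from RefSeq, GRCm38.p6.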

Additional observations from a re-analysis of the deposited data

Results flagged for a closer look

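The difference between the tlr4f/f-lysM-cre contrast and the tlr4f/f contrast passed edgeR's interaction test (adjusted p below 0.05) in 14 of 192 tested genes, the 49 and 143 related genes of the lists, or 7.29%, against 6.99% of all genes. This interaction is the same number whether or not the headings are exchanged. Of the 49 genes, Idh1 had an interaction of 1.524 and Cycs one of -0.743 on the log2 scale. Of the related genes, 12 passed, 8 of them positive. Those listed with the assembly of complexes I to III were Ndufaf4 at 1.251, Ecsit at 1.083, Tmem126b at 0.925, Sdhaf1 at 1.142, Bcs1l at 1.13 and Uqcc1 at 0.587. Of the regulators of mitochondrial biogenesis, the mitochondrial transcription genes Tfb2m and Polrmt were positive, at 0.951 and 0.823, and Gabpb1, a subunit of the transcription factor GABP, was negative, at -0.797. The copper chaperone Cox17 was negative, at -0.701, as were the glycolysis genes Hk2, at -0.699, and Pfkfb3, at -3.546. Tmem126b and Uqcc1 (each with an adjusted p = 0.0457 in edgeR), Cox17 (adjusted p = 0.0479 in edgeR) and Hk2 (adjusted p = 0.0486 in edgeR) were the closest to the limit.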

How the results depend on the processing

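With the heading LPS- tlr4f/f-lysM-cre in exchange for LPS+ tlr4f/f, the genes called were 5 instead of 0 for LPS in tlr4f/f, 23 instead of 2 for LPS in tlr4f/f-lysM-cre, 0 instead of 5 for the genotypes without LPS and 2 instead of 23 for the genotypes with LPS. Of all genes, the shares called were 37.3% instead of 1.28%, 61.4% instead of 26.7%, 1.28% instead of 37.3% and 26.7% instead of 61.4%, in the same order. The exchange turned the direction of Idh1 (to -0.234) and Cycs (to 0.795) for LPS in tlr4f/f-lysM-cre and of Idh1 (to 0.043) for the genotypes without LPS. For the genotypes with LPS it turned Dlst (to -0.037), Ndufs4 (to -0.276), Ndufs8 (to 0.568), Cycs (to -0.649) and Cox5a (to -0.15). As headed, DESeq2 called 6, 4 and 8 genes in the tlr4f/f, tlr4f/f-lysM-cre and LPS- contrasts, against 15.6%, 34.4% and 44.1% of all genes. In the tlr4f/f contrast limma voom called 2, against 8.71%. All 12 libraries in 1 fit called 1, 8, 14 and 2 in the tlr4f/f, tlr4f/f-lysM-cre, LPS- and LPS+ contrasts, against 4.64%, 28.7%, 53% and 31.1% of all genes, and the criteria of the study called 0, 1, 2 and 0 there and 0 in the interaction. The interaction called 1 gene without the filter beyond 1 count, against 2.72% of all genes, and 1 with the sum over transcript rows, against 5.66%. Leaving out 1 library gave 0 to 5, 1 to 5, 2 to 5 and 19 to 25 genes in the 4 contrasts and 1 to 5 in the interaction. Of all genes, these fits called 0% to 14.3%, 7.01% to 34%, 25.3% to 29.6% and 55.1% to 59.1% in the 4 contrasts. In the interaction they called 2.24% to 9.45%. RLE factors called 7 in the LPS- contrast, 5 higher and 2 lower, against 3 and 2 with TMM factors. The share of all genes called was 37% with RLE and 37.3% with TMM factors. Where not given above, the cause was not tested. Apart from the exchange, 0 of the genes with values of every library changed direction under any alternative. With 1 library left out, 21 calls of these genes were lost and 93 kept, and in the fit of all 12 libraries 7 were lost and 8 kept. Fh1 was not part of this tally.

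Samples with the same replicate number did not deviate together in every pair, so the numbers were not treated as pairs. The highest values were in the LPS- contrast, with r of 0.472, 0.34 and 0.0138 for replicates 1, 2 and 3. In the other contrasts r was between -0.0374 and 0.19. With the replicate block, 0, 2, 6 and 24 genes were called in the 4 contrasts and 2 in the interaction. Of all genes, that fit called 0%, 17.2%, 39.6% and 64.6% in the 4 contrasts and 6.69% in the interaction.

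With 3 libraries per group, the SE of a log2 difference over the 49 genes had a median of 0.095, 0.13, 0.163 and 0.056 and a highest value of 0.283, 0.411, 0.453 and 0.117 in the 4 contrasts. Differences well above these SEs could be missed at single genes. In the tlr4f/f contrast Sucla2 at 0.417 (SE 0.0893) and Suclg2 at -0.648 (SE 0.215) were not called by edgeR. In the LPS- contrast Mdh1 at -0.651 (SE 0.26) was not called either.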
